A study of Rattus norvegicus with 24 samples.

Results

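Phox2a, Hand2, Gata2, Gata3 and Dlk1 are 5 genes tied to sympathoadrenal identity, the state shared by sympathetic neurons and the chromaffin cells of the adrenal medulla. They were picked by symbol, 5 of the 17055 genes counted, and 4 of them had counts. Total RNA was sequenced in 24 libraries of PC12, a rat pheochromocytoma line of neural crest origin that stores catecholamines in chromaffin-type granules. The α1ACT line stably expressed human α1ACT, a transcription factor made from the 3′ part of the calcium channel gene CACNA1A, from the plasmid pcDNA3. The vector line carried empty pcDNA3. Both were labelled 6 h, 24 h, 3 d and 10 d, with 3 libraries in each of the 8 groups and cells at passages 18 to 20 in F-12K medium with horse and fetal bovine serum. The labels do not say from what event the times run, and each line is 1 stable line, so the effect of α1ACT and any other difference between these 2 lines cannot be told apart.

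The line and time of a library are those of its label, and 18 of the 24 deposited files carry a name that conflicts with the label, all 18 in time and 12 also in line. Replicate numbers match in 24. File names use P or Q11 for the line, and by the sample titles Q11 stands for α1ACT. By file name, the labelled α1ACT 6 h and vector 6 h libraries are P at 24 h and P at 6 h, and the labelled α1ACT 24 h and vector 24 h libraries are P at 10 d and P at 3 d. The labelled α1ACT 3 d and vector 3 d libraries are Q11 at 24 h and Q11 at 6 h, and the labelled α1ACT 10 d and vector 10 d libraries are Q11 at 10 d and Q11 at 3 d. Only the α1ACT 10 d and vector 6 h groups carry the same line and time in both. A difference between the lines at a labelled time is therefore, by file name, a difference between times within a line, and the 2 readings cannot be told apart from the labels.

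As background, sympathoadrenal precursors of the neural crest take on noradrenergic identity under bone morphogenetic protein (BMP) signals, through a network of transcription factors. Phox2a is a homeodomain protein that acts on the genes of noradrenaline synthesis. Hand2 is a basic helix-loop-helix factor that binds E-boxes, of the form CANNTG, as a dimer with E proteins. Gata2 and Gata3 are zinc finger factors that bind GATA sequences, and in mice Gata3 is needed for the enzymes of catecholamine synthesis in the sympathoadrenal lineage. Dlk1 is an imprinted, membrane-bound relative of the Notch ligands found in chromaffin cells.

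The network is known to act on itself, and the windows around the start of the 4 counted genes are shown as background. Whether the members act on one another in these cells was not tested. Each runs from 250 bases before to 50 bases after the start of the gene in RefSeq, build GRCr8, 5′ to 3′ on the strand of the gene, and all 5 genes had an entry. Capitals mark every match of 3 motifs searched on both strands. These were AGATAA for GATA factors, called the GATA motif below, the E-box CANNTG, and TAATTA, a core bound by many homeodomain proteins. Only these exact letters were searched for GATA factors. Other GATA sequences, such as tgatag in the Gata3 window, stay in lower case and are not counted.
Phox2a, chr1:165590507-165590806, plus strand: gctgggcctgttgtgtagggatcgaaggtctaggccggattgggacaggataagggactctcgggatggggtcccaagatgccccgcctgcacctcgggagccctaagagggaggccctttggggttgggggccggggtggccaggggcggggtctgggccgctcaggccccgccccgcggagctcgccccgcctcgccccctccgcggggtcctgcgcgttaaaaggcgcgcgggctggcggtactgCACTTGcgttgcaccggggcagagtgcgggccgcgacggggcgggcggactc
Hand2, chr16:37931439-37931738, minus strand: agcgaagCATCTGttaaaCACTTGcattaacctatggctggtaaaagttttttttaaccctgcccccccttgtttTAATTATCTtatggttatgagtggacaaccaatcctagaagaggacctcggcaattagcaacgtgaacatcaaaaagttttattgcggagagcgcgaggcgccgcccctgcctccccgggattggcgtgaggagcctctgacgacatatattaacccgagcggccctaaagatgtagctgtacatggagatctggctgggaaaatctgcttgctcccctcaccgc
Gata2, chr4:122216031-122216330, plus strand: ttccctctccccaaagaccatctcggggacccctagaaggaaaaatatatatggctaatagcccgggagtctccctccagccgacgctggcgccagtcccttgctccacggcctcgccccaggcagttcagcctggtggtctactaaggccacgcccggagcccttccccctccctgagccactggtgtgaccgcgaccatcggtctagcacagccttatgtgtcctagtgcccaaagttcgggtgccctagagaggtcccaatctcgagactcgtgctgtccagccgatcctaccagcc
Gata3, chr17:73553298-73553597, plus strand: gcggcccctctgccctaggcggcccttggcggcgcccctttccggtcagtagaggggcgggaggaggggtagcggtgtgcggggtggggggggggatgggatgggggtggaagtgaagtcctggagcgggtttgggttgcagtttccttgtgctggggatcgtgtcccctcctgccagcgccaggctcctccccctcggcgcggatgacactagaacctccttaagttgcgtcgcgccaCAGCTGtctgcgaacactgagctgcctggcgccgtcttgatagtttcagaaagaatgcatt
The Phox2a window holds 1 E-box, from position -2 to position 4 with the first base of the gene as 1, and the Gata3 window holds 1 E-box from -11 to -6. The Hand2 window holds 2 E-boxes, from -243 to -238 and from -232 to -227, and a homeodomain core from -175 to -170 that overlaps a GATA motif on the opposite strand from -172 to -167. The Gata2 window holds no match. Of 33469 such windows in the rat, 72.1% hold an E-box, 11.6% the GATA motif and 5.36% the homeodomain core, so an E-box in a window of this length is the usual case. G and C make up 73.0% of the Phox2a window, 49.3% of the Hand2 window, 61.3% of the Gata2 window and 65.0% of the Gata3 window, against a median of 51.7% over all windows. A match is a run of letters and was not tested as a binding site.

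Each library held 8679560 to 14486248 counts on genes. Levels are counts on genes scaled to a library total shared by all samples (CPM) after TMM scaling, which equalises libraries by their typical gene, and with no gene lengths used here levels are compared within a gene. The cells carried the mRNAs of catecholamine cells in every group, with group means of 4937 to 8263 CPM for Th, which encodes the rate-limiting enzyme tyrosine hydroxylase, 32.7 to 44.9 CPM for Dbh, which makes noradrenaline from dopamine, and 2222 to 3234 CPM for Chga, a granin of the secretory granule. Of the markers of other cells listed, 2 of 12 for glia (Sox10 and Fabp7), 5 of 12 for the adrenal cortex (Cyp17a1, Cyp11b1 and Mc2r among them), 3 of 10 for fibroblasts (Col1a2, Pdgfrb and Lum), 3 of 10 for endothelium (Kdr, Tie1 and Emcn) and 4 of 11 for blood (Ptprc, Hba1 and Tyrobp among them) stood at 0 in all libraries. A 0 in these files does not show that an mRNA was absent, and other genes of each list were counted. Between 47.8% and 52.9% of the reads considered for counting lay outside annotated genes. In these bulk samples, fewer cells carrying an mRNA and less of it per cell cannot be told apart. A count table does not state whether strand was used, so reads of antisense transcripts, which are known in humans beside GATA2, GATA3 and HAND2, cannot be told apart from those of the gene.

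Phox2a fell in the α1ACT line at 24 h and 10 d, with a 1.50-fold and a 1.86-fold lower level than in the vector line. At 6 h it stood at 494.1, 455 and 467 CPM in the α1ACT libraries, against 494.2, 549 and 520 CPM in the vector libraries. At 24 h it stood at 282, 312 and 269 CPM in the α1ACT libraries, against 425, 434 and 435 CPM in the vector libraries. The libraries touched at 6 h without overlap, and at 24 h lay more than 100 CPM apart. At 3 d it stood at 448, 468 and 445 CPM in the α1ACT libraries, against 499, 482 and 480.0 CPM in the vector libraries. At 10 d it stood at 245, 257 and 247 CPM in the α1ACT libraries, against 430.0, 515 and 453 CPM in the vector libraries. The α1ACT groups of 24 h and 10 d were thus the 2 lowest of the 8, and the other 6 group means lay within 431 to 521 CPM. In log2 fold changes ± SE the difference was -0.58 ± 0.06 at 24 h (edgeR quasi-likelihood F-test, adjusted p = 4.78e-09) and -0.90 ± 0.06 at 10 d (adjusted p = 3.05e-12). At 3 d it was -0.10 ± 0.06 and did not pass (adjusted p = 0.169), but it passed in a fit of those 6 libraries (0.0394) and without all libraries numbered 2 (0.0244), and the libraries of the lines did not overlap. At 6 h it was -0.14 ± 0.06 and passed narrowly (adjusted p = 0.0499). That call ended with library sizes in place of TMM factors (adjusted p = 0.168), with no filter on low counts (0.0705), and without vector 6 h replicate 2 (0.266) or 3 (0.121), α1ACT 6 h replicate 2 (0.213) or 3 (0.150), or all libraries numbered 2 (0.258) or 3 (0.243).

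Within the α1ACT line Phox2a was 1.64-fold lower at 24 h than at 6 h (log2 fold change -0.71 ± 0.06, adjusted p = 4.87e-10) and 1.82-fold lower at 10 d than at 3 d (-0.86 ± 0.06, adjusted p = 2.43e-11). Within the vector line it was lower at 24 h than at 6 h by a smaller step (-0.27 ± 0.06, adjusted p = 0.000211), and 10 d against 3 d did not pass (-0.06 ± 0.06, adjusted p = 0.334), although it passed without vector 10 d replicate 2 (-0.15, adjusted p = 0.0261) or all libraries numbered 2 (-0.16, adjusted p = 0.00501). Between 10 d and 24 h of the α1ACT line it differed by -0.20 ± 0.06 (adjusted p = 0.0482), a call that ended in a fit of those 6 libraries alone (0.134) and in 6 of 9 fits that left out libraries, those without α1ACT 24 h replicate 1 (0.0861) or 2 (0.324), α1ACT 10 d replicate 1 (0.173) or 3 (0.180), or all libraries numbered 1 (0.317) or 3 (0.194). By file name, the low groups are the 10 d libraries of Q11 and of P, and the 6 h mean is the highest of each line. The share of reads outside genes was highest in the same groups, at 51.6% ± 0.589 in α1ACT 24 h and 52.5% ± 0.299 in α1ACT 10 d, against 50.4% ± 0.362 in vector 24 h and 50.9% ± 0.364 in vector 10 d (SD, n = 3), and its part in the result was not tested.

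**Figure D1:**
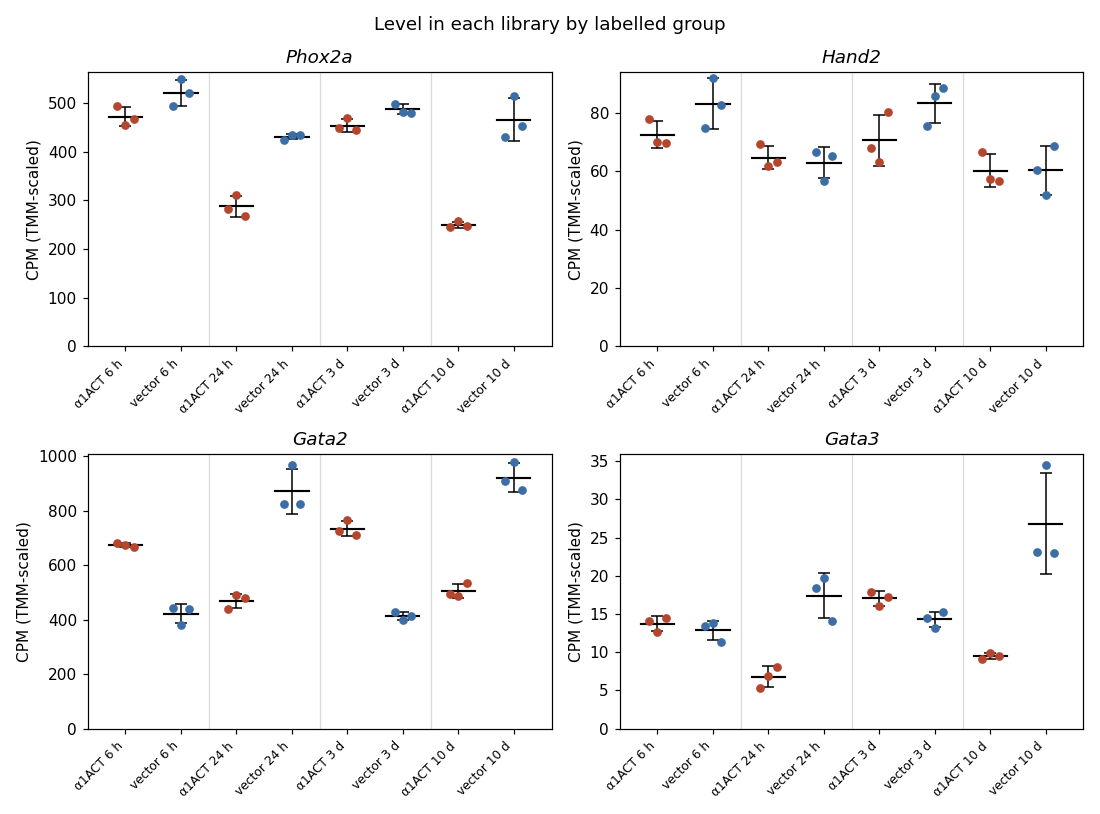
Level of each counted gene in CPM after TMM scaling (vertical axis, from 0) in every library of the 8 labelled groups, α1ACT in red and vector in blue, with the group mean and SD (n = 3) as bars. Phox2a is low in the α1ACT 24 h and 10 d libraries, Gata2 alternates in direction from time to time, and Gata3 is lowest in α1ACT 24 h and highest in vector 10 d.

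Hand2 did not pass between the lines at any labelled time in the fit of all libraries, and it was the steadiest of the 4 counted genes, with group means of 60.2 to 83.2 CPM. At 6 h it stood at 77.8, 69.8 and 69.7 CPM in the α1ACT libraries, against 74.8, 91.9 and 82.5 CPM in the vector libraries. At 24 h it stood at 69.2, 61.6 and 63.1 CPM in the α1ACT libraries, against 66.6, 56.7 and 65.3 CPM in the vector libraries. The lines overlapped at both times. At 3 d it stood at 68.1, 63.1 and 80.3 CPM in the α1ACT libraries, against 75.5, 85.7 and 88.3 CPM in the vector libraries. At 10 d it stood at 66.6, 57.3 and 56.7 CPM in the α1ACT libraries, against 60.4, 51.9 and 68.6 CPM in the vector libraries. The lines overlapped at these times too. The log2 fold change was -0.20 ± 0.10 at 6 h (edgeR adjusted p = 0.108), where it passed without all libraries numbered 1 (-0.34, adjusted p = 0.0445). It was 0.04 ± 0.10 at 24 h (0.775) and 0.00 ± 0.10 at 10 d (0.981). At 3 d it was -0.24 ± 0.10 (adjusted p = 0.0568), next to the threshold, and it passed with the replicate number as a block (-0.24, adjusted p = 0.0433), with DESeq2's size factors in edgeR (0.0415), in DESeq2 (0.0380), with no filter on low counts (0.0317) and in a fit of those 6 libraries (0.0273). It also passed without vector 3 d replicate 1 (0.0214) or α1ACT 3 d replicate 3 (0.0132), so whether Hand2 is lower in the α1ACT line at 3 d depends on these choices.

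From 6 h to 24 h and from 3 d to 10 d, Hand2 fell within the vector line, and the same changes within the α1ACT line did not pass. It was 1.32-fold lower at 24 h than at 6 h in the vector line (-0.40 ± 0.10, adjusted p = 0.00106) and 1.38-fold lower at 10 d than at 3 d (-0.46 ± 0.10, adjusted p = 0.000252). The same steps in the α1ACT line were -0.16 ± 0.10 (adjusted p = 0.189) and -0.22 ± 0.10 (adjusted p = 0.0772). The second of these passed with library sizes (-0.26, adjusted p = 0.0428), with no filter (-0.23, adjusted p = 0.0472), and without α1ACT 3 d replicate 2 (0.0291), α1ACT 10 d replicate 1 (0.0367) or all libraries numbered 2 (0.0286). The test of whether the line difference depends on time did not pass for Hand2 (adjusted p = 0.211), so the lines are not shown to differ in these steps. By file name the means were 83.2 CPM in Q11 and 83.1 CPM in P at 6 h, 70.5 CPM in Q11 and 72.4 CPM in P at 24 h, 60.3 CPM in Q11 and 62.8 CPM in P at 3 d, and 60.2 CPM in Q11 and 64.6 CPM in P at 10 d. They are lower at each step up to 3 d, and the 10 d means stand near those of 3 d.

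Gata2 passed at all 4 labelled times, and its direction alternated. It was higher in the α1ACT line at 6 h (1.60-fold) and 3 d (1.77-fold), and lower at 24 h (1.86-fold) and 10 d (1.83-fold). At 6 h it stood at 683, 675 and 667 CPM in the α1ACT libraries, against 444, 382 and 440.0 CPM in the vector libraries. At 24 h it stood at 439, 490.1 and 477 CPM in the α1ACT libraries, against 823, 967 and 824 CPM in the vector libraries. The lines were apart at both times, in opposite directions. At 3 d it stood at 726, 764 and 711 CPM in the α1ACT libraries, against 430, 398 and 413 CPM in the vector libraries. At 10 d it stood at 492, 486 and 533 CPM in the α1ACT libraries, against 910.0, 977 and 875 CPM in the vector libraries. The pattern of 6 h and 24 h recurred, with no overlap. The log2 fold changes were 0.68 ± 0.06 at 6 h (edgeR adjusted p = 8.83e-09), -0.89 ± 0.06 at 24 h (1.74e-11), 0.83 ± 0.06 at 3 d (2.71e-10) and -0.87 ± 0.06 at 10 d (2.46e-11).

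From 6 h to 24 h and from 3 d to 10 d, Gata2 rose in the vector line and fell in the α1ACT line. It was 2.06-fold higher at 24 h than at 6 h in the vector line (1.05 ± 0.06, adjusted p = 4.38e-13) and 2.23-fold higher at 10 d than at 3 d (1.16 ± 0.06, adjusted p = 6.27e-14). In the α1ACT line it was 1.44-fold lower at 24 h than at 6 h (-0.53 ± 0.06, adjusted p = 3.54e-07) and 1.46-fold lower at 10 d than at 3 d (-0.54 ± 0.06, adjusted p = 2.14e-07). The labelled 3 d groups stood near those of 6 h and the 10 d groups near those of 24 h, with differences of -0.03 to 0.12 on the log2 scale that did not pass, apart from α1ACT 10 d against 24 h without all libraries numbered 2 (adjusted p = 0.0433). By file name the same values form 1 course shared by both lines, with 413 CPM in Q11 and 422 CPM in P at 6 h, 734 CPM in Q11 and 675 CPM in P at 24 h, 921 CPM in Q11 and 871 CPM in P at 3 d, and 504 CPM in Q11 and 469 CPM in P at 10 d. That course climbs to 3 d and is lower again at 10 d.

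Gata3 fell in the α1ACT line at 24 h (2.53-fold) and 10 d (2.82-fold), the widest line differences among the 4 counted genes. It was the least counted of them, with 61 to 410 counts per library. At 6 h it stood at 14.1, 12.7 and 14.5 CPM in the α1ACT libraries, against 13.4, 13.8 and 11.4 CPM in the vector libraries. At 24 h it stood at 5.36, 6.86 and 8.13 CPM in the α1ACT libraries, against 18.4, 19.7 and 14.1 CPM in the vector libraries. The lines overlapped at 6 h and were apart at 24 h. At 3 d it stood at 17.9, 16.0 and 17.2 CPM in the α1ACT libraries, against 14.4, 13.2 and 15.2 CPM in the vector libraries. At 10 d it stood at 9.12, 9.85 and 9.50 CPM in the α1ACT libraries, against 23.1, 34.5 and 22.9 CPM in the vector libraries. Vector 10 d replicate 2 was the highest library of all, and the lowest vector library of that time was still more than 2-fold above every α1ACT library. The log2 fold changes were -1.34 ± 0.16 at 24 h (edgeR adjusted p = 1.49e-07) and -1.50 ± 0.16 at 10 d (8.46e-09), and at 10 d -1.28 without vector 10 d replicate 2 (2.51e-08). At 6 h (0.09 ± 0.16, adjusted p = 0.659) and 3 d (0.26 ± 0.15, adjusted p = 0.184) it did not pass.

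Gata3 changed in the same directions as Gata2 from 6 h to 24 h and from 3 d to 10 d. In the vector line it was 1.87-fold higher at 10 d than at 3 d (0.91 ± 0.14, adjusted p = 4.59e-06) and 1.34-fold higher at 24 h than at 6 h (0.42 ± 0.15, adjusted p = 0.0172). The second call ended without vector 6 h replicate 3 (0.0834), vector 24 h replicate 1 (0.0681) or 2 (0.0854), or all libraries numbered 1 (0.118). In the α1ACT line it was 2.02-fold lower at 24 h than at 6 h (-1.01 ± 0.17, adjusted p = 3.13e-05) and 1.80-fold lower at 10 d than at 3 d (-0.85 ± 0.16, adjusted p = 0.000156). By file name the Gata3 means in P at 6 h, 24 h, 3 d and 10 d were 12.9, 13.8, 17.4 and 6.78 CPM. In Q11 they were 14.3, 17.0, 26.8 and 9.49 CPM at the same times. The mean was highest at 3 d and lowest at 10 d in each.

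Gata3 also differed between the later and the earlier labelled times of the 2 lines pooled. It averaged 16.9 CPM over the 12 libraries of 3 d and 10 d, against 12.7 CPM over the 12 libraries of 6 h and 24 h (0.39 ± 0.08, edgeR adjusted p = 0.00120), while 15.6% of tested genes passed in this contrast. Gata2 (0.07, adjusted p = 0.155) and Phox2a (-0.06, adjusted p = 0.164) did not pass, except Gata2 without vector 24 h replicate 2 (0.0343) or all libraries numbered 2 (0.0310), and Phox2a without vector 10 d replicate 2 (0.0333) or all libraries numbered 2 (0.0291). By file name this is Q11 against P. Its parts were 0.63 ± 0.14 for vector 10 d against 24 h (adjusted p = 0.00545), 0.48 ± 0.19 for α1ACT 10 d against 24 h (0.154), 0.31 ± 0.15 for α1ACT 3 d against 6 h (0.479) and 0.15 ± 0.16 for vector 3 d against 6 h (0.756). All 4 were positive, and only the first passed on its own. That first call ended in a fit of those 6 libraries (0.0793) and without vector 24 h replicate 3 (0.0660), vector 10 d replicate 2 (0.42, adjusted p = 0.0646) or all libraries numbered 3 (0.0811), while the contrast of all 24 libraries without vector 10 d replicate 2 was 0.34 (adjusted p = 0.000854).

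**Figure D2:**
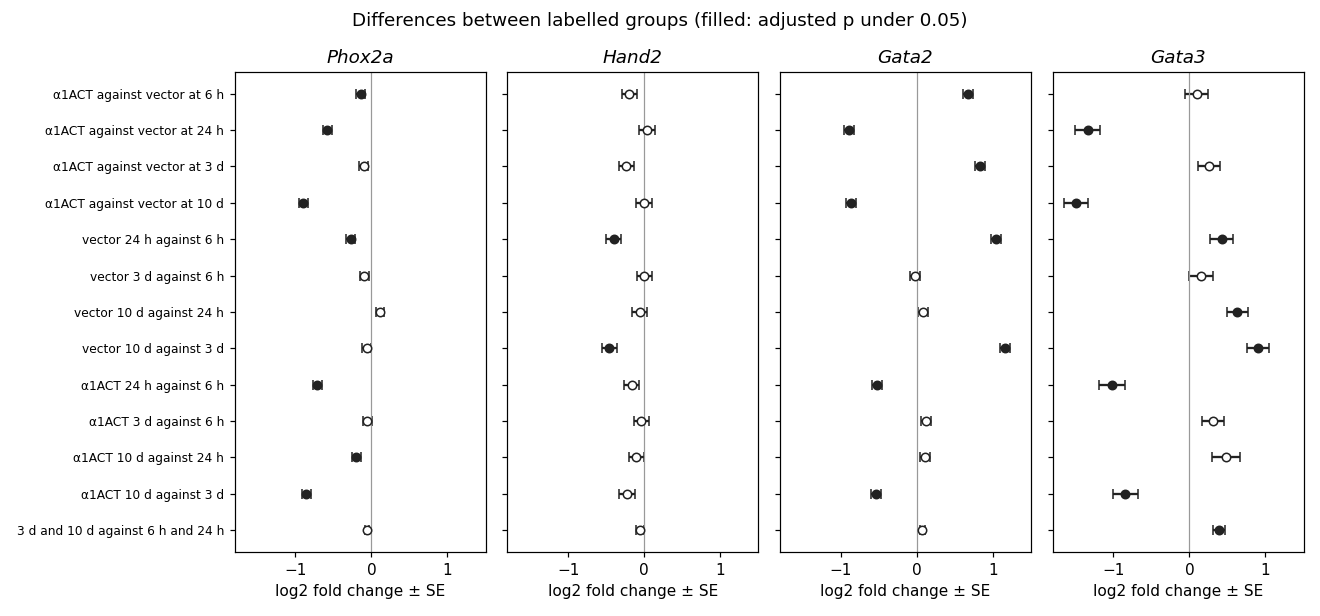
Log2 fold changes (horizontal axis) ± SE of the 4 counted genes from the edgeR fit for each comparison of labelled groups, first group over second, with filled points for an adjusted p under 0.05. Hand2 stays within 0.5 of 0 throughout, Gata2 points sit on both sides of 0, and the Gata3 points for α1ACT against vector at 24 h and 10 d lie furthest to the left.

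Of the 4 counted members, 2 passed for α1ACT against vector at 6 h, 3 at 24 h, 1 at 3 d and 3 at 10 d, where 41.6%, 55.5%, 39.4% and 58.9% of the 9994 tested genes passed. Within the vector line 4 passed for 24 h against 6 h and 3 for 10 d against 3 d, beside 61.5% and 64.2% of tested genes. Within the α1ACT line 3 passed for 24 h against 6 h and 3 for 10 d against 3 d, beside 44.1% and 44.6%. None passed for 3 d against 6 h in either line, where 1.06% of tested genes passed in the α1ACT line and 1.47% in the vector line. For 10 d against 24 h, Phox2a passed in the α1ACT line, beside 4.62% of tested genes, and Gata3 in the vector line, beside 7.44%. With 4 counted members these counts are a description and no result about them as a set. A comparison of lines and a comparison of times that use the same group share the libraries of that group.

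The spread of the 8 group means set the members apart in size. It was 1.95 on the log2 CPM scale for Gata3, larger than for 96.3% of tested genes, 1.15 for Gata2 (83.5%), 1.06 for Phox2a (79.9%) and 0.47 for Hand2 (35.2%), against a median of 0.60. All 4 differed among the 8 groups (edgeR adjusted p = 8.08e-10 for Gata3, 2.03e-15 for Gata2, 3.46e-14 for Phox2a and 0.000133 for Hand2), as did 89.5% of tested genes. Of the 28 pairs of groups, 24 passed for Gata2, 19 for Gata3, 18 for Phox2a and 10 for Hand2, and a pair called 1.06% to 64.3% of tested genes (median 54.8%). The line difference depended on time for Phox2a, Gata2 and Gata3, as it did for 57.7% of tested genes.

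Ordered by mean, the groups separate unevenly. For Phox2a vector 6 h led, followed by vector 3 d, α1ACT 6 h, vector 10 d, α1ACT 3 d and vector 24 h with no step between neighbours that passed, and α1ACT 24 h lay below vector 24 h by the -0.58 already given. For Hand2 no neighbouring groups differed beyond the threshold, in the order vector 3 d, vector 6 h, α1ACT 6 h, α1ACT 3 d, α1ACT 24 h, vector 24 h, vector 10 d and α1ACT 10 d. For Gata2 the order was vector 10 d, vector 24 h, α1ACT 3 d, α1ACT 6 h, α1ACT 10 d, α1ACT 24 h, vector 6 h and vector 3 d. Its neighbours differed between vector 24 h and α1ACT 3 d (adjusted p = 0.00184), between α1ACT 6 h and α1ACT 10 d (6.88e-06) and narrowly between α1ACT 24 h and vector 6 h (0.0465), pairs in which 55.6%, 48% and 57% of tested genes passed. For Gata3 the order was vector 10 d, vector 24 h, α1ACT 3 d, vector 3 d, α1ACT 6 h, vector 6 h, α1ACT 10 d and α1ACT 24 h, with steps that passed below vector 10 d and between vector 6 h and α1ACT 10 d (adjusted p = 0.0280). These orders and steps come from the same values and are a description.

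The 2 groups whose label and file name agree can be set side by side, although they differ in both line and time. In α1ACT 10 d libraries Phox2a averaged 250 CPM, against 521 CPM in vector 6 h libraries, a 2.09-fold lower level (log2 fold change -1.06 ± 0.06, edgeR adjusted p = 1.59e-13). Hand2 was also lower (-0.46 ± 0.10, adjusted p = 0.000340), as was Gata3 (-0.44 ± 0.17, adjusted p = 0.0280). Gata2 was higher (0.26 ± 0.06, adjusted p = 0.00138). Of all tested genes 61.2% passed in this comparison.

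**Figure D3:**
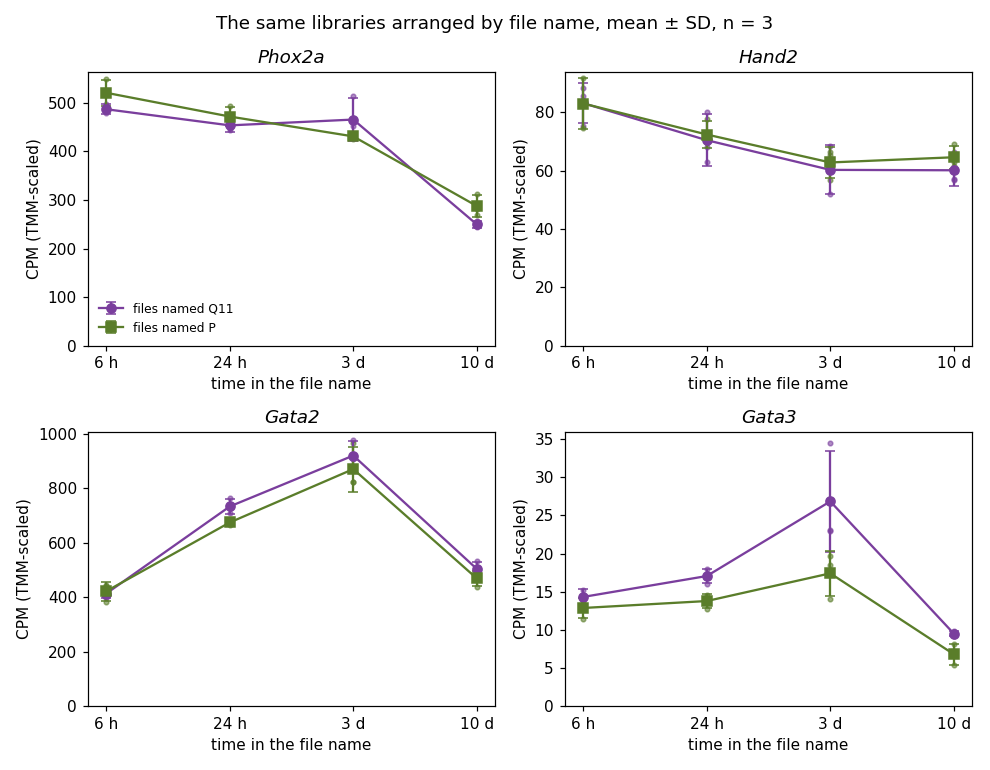
The same libraries placed by the line and time in their file names, with level in CPM after TMM scaling (vertical axis, from 0) against time (horizontal axis, evenly spaced), points for libraries and mean ± SD (n = 3), Q11 in purple and P in green. The 2 lines run close together for Phox2a, Hand2 and Gata2, and Gata3 averages 26.8 CPM in Q11 and 17.4 CPM in P at 3 d.

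Dlk1 had 0 counts in all 24 libraries, among 276135956 counts on genes. A count of 0 allows up to 3 counts, which is 0.207 to 0.346 CPM per library and 0.0109 CPM over all libraries, for counting error only. Absence of the mRNA cannot be read from this, because genes that every cell uses were also listed at 0. Among 10 such genes checked, Rpl8, a protein of the large ribosomal subunit, and Polr2h, a subunit of RNA polymerase II, had no count in any library. In all, 3868 of 17055 genes were at 0. These included 2 of 78 ribosomal protein genes (Rpl8 and Rps4y2), 1 of 10 RNA polymerase II subunit genes (Polr2h) and 0 of 39 proteasome subunit genes. Of the listed neighbours of Dlk1 on its chromosome, Dio3 and Begain were also at 0 and Wars was counted. Meg3, Rtl1, Mirg and Rian had no entry among the 17055 genes, so they were not analysed here. No comparison of groups was made for Dlk1.

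At 24 h and 10 d, where Phox2a and Gata3 fell, other sympathoadrenal factors fell more often than they rose. Of 20 such genes listed beside the members, 9 were tested and 6 were at 0 (Sox11, Tfap2a, Tfap2b, Gfi1, Prox1 and Ebf1). Insm1 and Eya1 were among those with no entry in the counts, and were not analysed here. In the α1ACT line against the vector line, 3 rose and 3 fell at 6 h, none rose and 4 fell at 24 h, 3 rose and 2 fell at 3 d, and none rose and 7 fell at 10 d. Their median log2 fold change was 0.18 at 6 h, -0.13 at 24 h, 0.13 at 3 d and -0.44 at 10 d, beside medians of 0.00, -0.02, 0.01 and 0.01 over all tested genes. Of all tested genes 20.5% rose and 21.2% fell at 6 h, 26.6% rose and 28.8% fell at 24 h, 19.9% rose and 19.4% fell at 3 d, and 29.5% rose and 29.4% fell at 10 d. The 4 that fell at 24 h were Tlx2, a homeobox factor of neural crest derivatives, Sox4, and, named here after their values were seen, Hand1, the paralogue of Hand2, and Isl1, a LIM homeodomain factor of sympathetic neurons. Tlx2 alternated like Gata2, at 0.58 ± 0.08 at 6 h, -0.22 ± 0.08 at 24 h, 0.65 ± 0.08 at 3 d and -0.27 ± 0.08 at 10 d, and passed at each. Cux2, a homeobox factor of neuronal precursors, rose at 6 h (0.97 ± 0.14) and 3 d (0.98 ± 0.13) and fell at 10 d (-0.44 ± 0.13). Here and in the lists below, a rise or fall is of labelled α1ACT against labelled vector. In the file names the 4 comparisons are 24 h against 6 h and 10 d against 3 d of P, then of Q11.

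Among partners of GATA factors, Zfpm1 followed Gata2 in direction at each time. Zfpm1, also called FOG1, is a zinc finger cofactor that binds GATA proteins. It was 1.14 ± 0.12 higher at 6 h and 1.19 ± 0.12 higher at 3 d on the log2 scale, and changed by -0.59 ± 0.11 at 24 h and -0.76 ± 0.11 at 10 d (edgeR adjusted p from 1.32e-08 to 4.28e-05). At 6 h it averaged 41.5 CPM with α1ACT, against 18.8 CPM with vector, and at 10 d 35.5 CPM with α1ACT, against 60.0 CPM with vector. Lyl1, a helix-loop-helix factor found in complexes with GATA proteins in blood cells, rose at 6 h (1.06 ± 0.24) and 3 d (0.99 ± 0.24) and fell at 24 h (-0.85 ± 0.18), at 1.27 to 5.40 CPM. Lmo1, a LIM-only adaptor, went the other way, rising at 24 h (0.52 ± 0.08) and 10 d (0.57 ± 0.08). Of 8 tested partners of 19 listed, 3 rose and none fell at 6 h, 1 rose and 3 fell at 24 h, 3 rose and 2 fell at 3 d, and 1 rose and 3 fell at 10 d. Zfpm2, or FOG2, did not pass at any of these times.

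Among partners of HAND factors, Tcf12, which encodes an E protein, fell at all 4 times, with differences of -0.18 ± 0.05, -0.34 ± 0.05, -0.16 ± 0.05 and -0.37 ± 0.05 on the log2 scale, though not at 3 d with library sizes (adjusted p = 0.0599). Twist1, which competes with Hand2 for E proteins in the mouse limb, rose at 24 h (0.64 ± 0.07) and 10 d (0.90 ± 0.07). Of 9 tested partners of 13 listed, 2 rose and 2 fell at 6 h, 2 rose and 5 fell at 24 h, 1 rose and 3 fell at 3 d, and 2 rose and 4 fell at 10 d. Their median log2 fold change was -0.02, -0.21, -0.08 and -0.19 at these times.

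Th rose where Phox2a and Gata3 fell. Its log2 fold change was 0.50 ± 0.05 at 24 h (edgeR adjusted p = 1.44e-08) and 0.71 ± 0.05 at 10 d (3.96e-11), and it fell slightly at 3 d (-0.18 ± 0.05, adjusted p = 0.00995). Its means at 10 d were 8263 ± 341 CPM in the α1ACT line and 5048 ± 106 CPM in the vector line (SD, n = 3). Dbh did not pass at any of the 4 times, with log2 fold changes of -0.16 ± 0.12 to 0.20 ± 0.13. Ret, the receptor of the GDNF family, rose at 24 h (1.16 ± 0.08) and 10 d (1.36 ± 0.09). Of 12 tested chromaffin markers of 16 listed, 4 rose and 2 fell at 6 h, 5 rose and 3 fell at 24 h, 4 rose and 3 fell at 3 d, and 8 rose and 2 fell at 10 d. Their median log2 fold change was 0.12 at 6 h, 0.12 at 24 h, 0.08 at 3 d and 0.36 at 10 d.

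Genes of the BMP and Notch pathways fell more often than they rose at 24 h and 10 d. Of 16 tested BMP pathway genes of 21 listed, 5 rose and 4 fell at 6 h, none rose and 10 fell at 24 h, 3 rose and 2 fell at 3 d, and none rose and 12 fell at 10 d, with medians of -0.06, -0.30, 0.10 and -0.30 on the log2 scale. Bmp2, a ligand of the pathway, fell at all 4 times, with differences of -0.59 ± 0.15, -1.19 ± 0.16, -0.79 ± 0.15 and -1.82 ± 0.16. Smad7, an inhibitor induced by the pathway, fell at 24 h (-0.97 ± 0.10) and 10 d (-0.94 ± 0.10). Of 22 tested Notch pathway genes of 32 listed, the pathway to which Dlk1 belongs as an atypical ligand, 6 rose and 2 fell at 6 h, 2 rose and 15 fell at 24 h, 7 rose and 2 fell at 3 d, and 3 rose and 12 fell at 10 d. Their medians were 0.09, -0.30, 0.17 and -0.22. Maml1 and Maml3, coactivators of the pathway, fell at 24 h (-1.11 ± 0.09 and -1.26 ± 0.11) and 10 d (-1.26 ± 0.09 and -0.96 ± 0.11). Hey1, a target gene of the pathway, went the other way and rose at all 4 times, by 0.90 ± 0.12, 0.38 ± 0.11, 0.54 ± 0.12 and 0.81 ± 0.11. These lists are described by counts beside the percentages of all tested genes given above, and nothing particular to them was tested. Read by file name, Bmp2 fell from 6 h to 24 h and from 3 d to 10 d, in P and Q11. Hey1 rose over the same steps.

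Of 9 tested genes of the list of imprinted genes and neighbours of Dlk1 (24 listed), 5 rose and 1 fell at 6 h, 2 rose and 2 fell at 24 h, 5 rose and 1 fell at 3 d, and 2 rose and 2 fell at 10 d. Their median log2 fold change was 0.19 at 6 h, -0.22 at 24 h, 0.38 at 3 d and 0.03 at 10 d. Wars, which encodes a tryptophanyl-tRNA synthetase, fell at all 4 times, with log2 fold changes of -0.33 ± 0.08, -1.33 ± 0.08, -0.35 ± 0.08 and -1.42 ± 0.08. Mest, imprinted in mice, rose at all 4 times, by 0.45 ± 0.08, 0.41 ± 0.08, 0.59 ± 0.08 and 0.37 ± 0.08. Igf2r, the receptor that clears Igf2, rose at 6 h (0.28 ± 0.07) and 3 d (0.23 ± 0.07) and fell at 24 h (-1.37 ± 0.07) and 10 d (-1.23 ± 0.07).

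**Figure D4:**
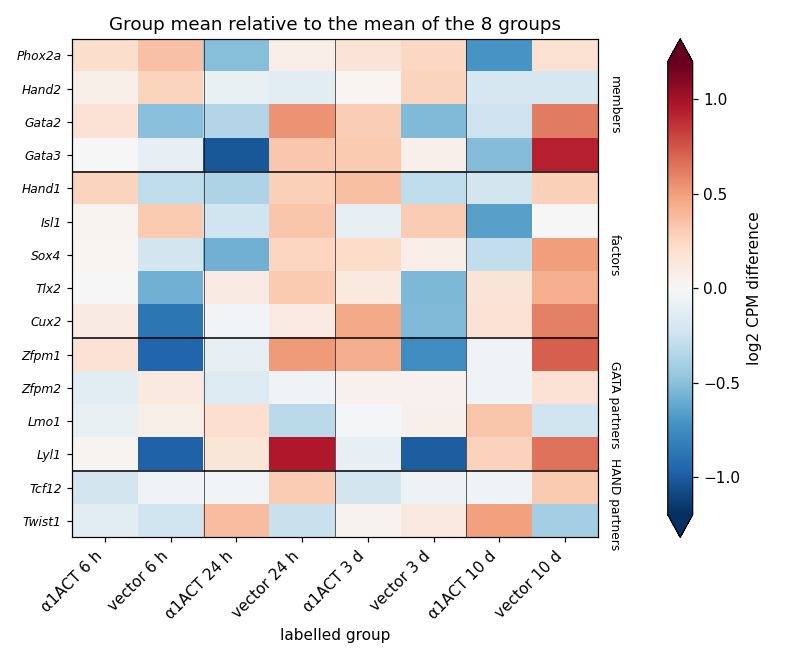
Group mean of each gene minus its mean over the 8 groups, in log2 CPM, as colour (red above, blue below), for the 4 counted genes and those genes of 3 lists that the text names (other sympathoadrenal factors, GATA partners, HAND partners), with labelled groups in columns. Zfpm1 shares the alternating colours of Gata2, and Sox4 those of Gata3.

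Of the markers of other cell types, 13 had enough counts to be tested, among them Thy1, which neurons also express. Of 2 tested fibroblast markers, Thy1 rose at all 4 times (by 0.16 to 0.24 on the log2 scale) and Dcn at 6 h, 3 d and 10 d. The 10 fibroblast genes summed to 703 to 880 CPM in α1ACT libraries and 632 to 782 CPM in vector libraries. Of 3 tested adrenal cortex markers, 2 fell at 6 h, none passed at 24 h, 3 fell at 3 d and 1 rose at 10 d, and the 12 listed genes summed to 63.1 to 75.4 CPM in α1ACT libraries and 59.7 to 100.4 CPM in vector libraries. Of 4 tested glial markers, Pmp22 fell at 6 h and 3 d and Mbp at 24 h and 10 d, and the listed glial genes had sums of 58.1 to 73.2 CPM in α1ACT libraries and 68.1 to 76.0 CPM in vector libraries. None of 2 tested endothelial markers passed, and of 2 blood markers Cd68 fell at 10 d, with sums of at most 5.09 CPM for the endothelial and 6.17 CPM for the blood list in any library. The part of these genes in the members' results was not tested.

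The genes whose pattern was most like that of a member were found by the correlation of log2 CPM group means over the 8 groups, among 9305 tested genes with a mean of at least 2 CPM. They were Smurf1, Ncoa5 and Foxj2 for Phox2a (r of 0.99 each), Mapre2, Eed and Slc12a2 for Hand2 (0.99 each), Lrp2, Fev and Inpp5j for Gata2 (0.98 each) and Sez6l2, Sox4 and Ece1 for Gata3 (0.99, 0.98 and 0.98). Over the 24 libraries the correlation was 0.93 to 0.96 for the genes like Phox2a, 0.75 to 0.83 for those like Hand2, 0.85 to 0.92 for those like Gata2 and 0.80 to 0.97 for those like Gata3. Ranked by that correlation among the 9305 genes, they stood at 7 to 70 for Phox2a and 16 to 299 for Hand2. The ranks were 15 to 146 for Gata2 and 1 to 337 for Gata3, with Sez6l2 at 1 and Sox4 at 337. Lrp2, which encodes megalin, an endocytic receptor, alternated like Gata2, with 28.1 ± 1.80 CPM for α1ACT, against 17.1 ± 0.969 CPM for vector at 6 h, and 19.8 ± 2.92 CPM for α1ACT, against 31.1 ± 2.68 CPM for vector at 24 h (SD, n = 3). Among the members themselves, r over the 8 means was 0.71 for Gata2 and Gata3, 0.70 for Phox2a and Gata3, 0.62 for Phox2a and Hand2, 0.22 for Phox2a and Gata2, -0.04 for Hand2 and Gata3 and -0.60 for Hand2 and Gata2. These values share libraries and scaling and describe likeness alone.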

How the data were processed

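Per the labels' protocols, total RNA of 24 PC12 libraries was made into stranded libraries after removal of ribosomal RNA and read as 100-base pairs in 3 lanes. The authors deposited 1 table of raw read counts per gene symbol for each library, whole numbers with no normalization. The submitters' processing notes name build rn5 and, without roles, FastQC 0.11.2, HTSeq 0.5.4p5, Picard 1.117, TopHat2 2.0.10 and edgeR. The annotation, the strand setting and the handling of duplicates are not given in those sources. Genes with near-identical copies may therefore have lost or shared reads.

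The 5 summary lines of each table entered neither library sizes nor tests, and 47.8% to 52.9% of the reads considered for counting lay outside genes. Tests were quasi-likelihood F-tests (edgeR 4.0.16 under R 4.3.3) on the counts, with TMM factors of 0.981 to 1.02. A single fit of the 24 libraries had 1 coefficient per labelled group and 16 residual degrees of freedom. Genes were filtered by group with a minimum count of 10 and a minimum total of 15, which left 9994, and Benjamini-Hochberg adjustment covered these genes at a threshold of 0.05. The procedure was tried on simulated counts in which few genes differed, in a single group, with no tie between replicate numbers. Far more genes passed in the comparisons of the lines, so that trial does not cover their setting. CPM values are TMM-scaled, and log2 CPM used a prior count of 2. With 8679560 to 14486248 counts per library, 3 counts equal 0.207 to 0.346 CPM, and such floors cover counting error only.

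File names defined no group. The protocol calls the libraries biological replicates, but no label says that cultures were separate, so p-values cover the spread among these samples alone. Samples of different groups with the same replicate number tended to deviate together. Their deviations had a median correlation of 0.0917, against -0.0613 for samples with other numbers. Every correlation was over 0.1 (0.124 to 0.318) only between α1ACT and vector at 3 d. The main fit had no term for the replicate number. Alternatives were DESeq2's size factors in edgeR, library sizes alone, no filter, DESeq2 1.42.0, the replicate number as a block, fits of the libraries compared alone, and leaving out libraries. Lists and named genes were also recounted under the other scalings, a check chosen after the data were seen.

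The members and the 12 gene lists (sympathoadrenal factors, chromaffin markers, GATA partners, HAND partners, Notch, BMP, imprinted genes and neighbours of Dlk1, and glial, cortex, fibroblast, endothelial and blood markers) were chosen with earlier results of these data known. Named genes were the members, the 3 genes most like each in pattern, up to 4 tested genes per list with the smallest p for any difference among groups and up to 2 with the largest change between later and earlier labelled times, and Th, Dbh, Chga and Cacna1a. Cacna1a, whose reads cannot be told apart from those of the human transgene here, is not reported. Some other genes that the naming rule selects enter the counts of their lists and are not reported here by name. Promoter windows and motifs come from RefSeq, build GRCr8, and no rn5 coordinates are given.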

Additional observations from a re-analysis of the deposited data

Results flagged for a closer look

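For 3 of the 4 counted members the difference between the lines depended on the labelled time, by the edgeR quasi-likelihood F-test of the interaction of line and time over all 4 times. For Gata2 the adjusted p was 4.97e-15, and α1ACT was higher than vector in every library at 6 h and 3 d and lower in every library at 24 h and 10 d. For Phox2a it was 7.00e-09, with log2 fold changes of -0.58 and -0.90 at 24 h and 10 d beside -0.14 and -0.10 at 6 h and 3 d. For Gata3 it was 3.76e-08, with -1.34 and -1.50 at 24 h and 10 d beside 0.09 and 0.26 at 6 h and 3 d. Of all tested genes 57.7% passed this test, so a passing result does not single these genes out. By file name the same contrast asks whether the difference between times differs between pairs of times, and the 2 readings cannot be told apart. With 3 libraries per group no single library was tested for standing apart.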

How the results depend on the processing

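No member value that passed in the fit of all libraries changed sign under any alternative run. Of 348 member values under alternatives other than leaving out libraries, 336 stayed on the same side of the threshold, 4 no longer passed and 8 newly passed, and the cause was not tested. With library sizes alone, Phox2a at 6 h was -0.10 (edgeR adjusted p = 0.168) and Hand2 in α1ACT 10 d against 3 d -0.26 (0.0428). With no filter they were -0.13 (0.0705) and -0.23 (0.0472), Hand2 at 3 d was -0.24 (0.0317), and 226 genes passed in vector 3 d against 6 h, against 147. Hand2 at 3 d was -0.25 with DESeq2's size factors (0.0415), -0.25 in DESeq2 (0.0380), -0.25 in the fit of the libraries compared (0.0273) and -0.24 with the replicate block (0.0433). In fits of the libraries compared, Phox2a at 3 d was -0.11 (0.0394), Gata3 in vector 10 d against 24 h 0.64 (0.0793) and Phox2a in α1ACT 10 d against 24 h -0.21 (0.134). Those fits called 314 genes in vector 10 d against 24 h (744 in the fit of all libraries), 63 in α1ACT 10 d against 24 h (462) and 160 in α1ACT 3 d against 6 h (106).

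The replicate block called 258 genes in vector 3 d against 6 h and 193 in α1ACT 3 d against 6 h, and changed no other call of a member. Same-numbered samples correlated at -0.0791 to 0.342 over all comparisons, and 18 of 24 libraries correlated best with their own number. The share of called genes that were higher in α1ACT at 6 h was 60.3% with library sizes, against 49.1% with TMM.

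Leaving out libraries changed the side of the threshold for 33 of 756 member values. The fits without 1 library or 1 replicate number gave these ranges of log2 fold change. Phox2a ranged over -0.23 to -0.067 in α1ACT against vector at 6 h, -0.25 to -0.14 in α1ACT 10 d against 24 h, -0.16 to 0.00051 in vector 10 d against 3 d, -0.081 to -0.046 in 3 d and 10 d against 6 h and 24 h, both lines and -0.13 to -0.090 in α1ACT against vector at 3 d. Hand2 ranged over -0.34 to -0.14 in α1ACT against vector at 3 d, -0.33 to -0.083 in α1ACT 10 d against 3 d and -0.34 to -0.080 in α1ACT against vector at 6 h. Gata2 ranged over 0.051 to 0.089 in 3 d and 10 d against 6 h and 24 h, both lines and 0.057 to 0.16 in α1ACT 10 d against 24 h. Gata3 ranged over 0.33 to 0.56 in vector 24 h against 6 h and 0.42 to 0.79 in vector 10 d against 24 h. Genes called numbered 5 to 479 in vector 3 d against 6 h, 8 to 361 in α1ACT 3 d against 6 h, 79 to 1125 in vector 10 d against 24 h, 0 to 814 in α1ACT 10 d against 24 h, 2580 to 3985 in α1ACT against vector at 6 h, 2449 to 3640 in α1ACT against vector at 3 d, 2599 to 4545 in α1ACT 24 h against 6 h, 2948 to 4321 in α1ACT 10 d against 3 d and 314 to 2062 in 3 d and 10 d against 6 h and 24 h, both lines.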

Other observations

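Hand2 and Gata2 deviated from their group means in opposite directions within groups. The correlation of their within-group deviations of log2 CPM over 24 libraries was -0.77, beside -0.60 over the 8 group means. The other 5 pairs of counted members had within-group values of -0.41 for Hand2 and Gata3 to 0.42 for Gata2 and Gata3. The pair was picked after the values were seen, both genes share each library's scaling, and no p is given.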
